A study of Homo sapiens with 20 samples.

Results

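Interferon-stimulated genes are a set of 35 named human genes whose transcription is switched on by interferons, and they were chosen by name. A transcript cluster with a single gene symbol was found for 34 of the 35, and STAT2 was not analysed here. For 4 members with several clusters the brightest one was used, so that 34 of the 18417 genes tested are described. They were measured in LNCaP, an established androgen-responsive line from a human prostate cancer, on 20 Affymetrix gene arrays in 7 groups. The 5 arrested groups had a cell cycle drug for 24 h in total, grew in a medium the labels call hormone proficient, and had 10 nM dihydrotestosterone (DHT, a potent androgen) for the last 3 h. Early G1 cells (n = 3) had 0.5 µM PD-0332991, an inhibitor of the kinases CDK4 and CDK6. Late G1 cells (n = 3) had 5 µg/mL roscovitine, which inhibits several cyclin-dependent kinases, including ones that act on RNA polymerase II. Early S cells (n = 2) had 2 µg/mL aphidicolin, an inhibitor of DNA polymerases, and late S cells (n = 3) had 1 mM hydroxyurea, which depletes deoxynucleotides. G2/M cells (n = 3) had 2 µg/mL aphidicolin for 15 h, a washout, and 50 ng/mL nocodazole, which blocks microtubule assembly, for 9 h. The unarrested groups were kept for 72 h in what the labels call CDT, and had either 10 nM DHT (CDT + DHT, n = 3) or ethanol (CDT, n = 3) for the last 3 h. The phases are those of the labels, all groups come from a single cell line, no group received interferon according to the labels, and every arrested group had DHT. An arrest therefore differs from CDT in drug, hormone and medium together, and from CDT + DHT in drug and medium.

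Interferons are secreted proteins that bind receptors on the cell surface, and the receptor-bound kinases JAK1 and TYK2 then activate STAT proteins, which join IRF9 and bind a short DNA element, the interferon-stimulated response element, in the promoters of target genes. The targets include sensors of foreign RNA, proteins that bind or degrade such RNA, the ubiquitin-like protein ISG15 with its ligases and protease, and the proteins that load peptides onto class I molecules for display to T cells. Foreign or misplaced nucleic acid inside a cell can start the same response through sensors such as RIGI, IFIH1 and CGAS. LNCaP is known as a line with little or no response to interferon, which has been tied to a lack of JAK1.

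Nothing in the labels tells whether the arrays of a group came from separate cultures, and the p-values therefore reflect array-to-array spread, which may be technical, with a precision limited by the number of arrays. Array medians of the deposited intensities over all features lay between 5.44 and 9.08, and 22 of the 34 members had a mean level below that of the median gene. Along the main axis of variation within groups, late S replicate 1 (score 0.88), early G1 replicate 2 (0.69), CDT replicate 1 (0.54) and CDT + DHT replicate 3 (0.54) lay farthest to one side, and late S replicate 2 (-0.80) to the other. Of the luminal prostate markers, 7 of 10 listed were measured, with KLK3 between 6.52 and 10.85 and KRT8 between 4.87 and 6.91 on the log2 scale. SLC45A3, the dimmest of the 7 by median, lay at 2.27 to 4.86, where the leukocyte markers NKG7 (2.60 to 4.61) and CD68 (1.45 to 6.27) also lay. The summed intensity of the luminal markers was 428 to 2867 per array, and that of 10 of 12 leukocyte markers was 38.8 to 147. Stroma markers summed to 40.7 to 110 and basal epithelium markers to 22.0 to 71.5. KLK3 and KLK2 were the brightest luminal markers by median. Levels below are log2(intensity + 1), and differences are limma differences on that scale ± SE, tested in 1 fit over 20 arrays with p-values adjusted by Benjamini-Hochberg over all genes.

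The promoters of 4 members are shown because the response element is the known common feature of such promoters, and because TAPBP, IFI6, ISG15 and IFIT3 are described below in single arrays. The 250 bases before the RefSeq start of each gene are given 5′ to 3′ on the gene's strand (build GRCh38.p14). Capitals mark the core of the element, searched on both strands as GAAA, any 2 bases and GAAA again, overlaps allowed. The TAPBP stretch is chr6:33314079-33314328 on the minus strand, IFI6 chr1:27672193-27672442 on the minus strand, ISG15 chr1:1013247-1013496 on the plus strand and IFIT3 chr10:89327747-89327996 on the plus strand.
TAPBP: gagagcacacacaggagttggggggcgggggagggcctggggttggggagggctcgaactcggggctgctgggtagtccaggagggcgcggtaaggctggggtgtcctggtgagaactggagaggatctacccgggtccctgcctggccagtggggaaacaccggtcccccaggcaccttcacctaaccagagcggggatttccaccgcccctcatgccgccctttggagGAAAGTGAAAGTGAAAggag
IFI6: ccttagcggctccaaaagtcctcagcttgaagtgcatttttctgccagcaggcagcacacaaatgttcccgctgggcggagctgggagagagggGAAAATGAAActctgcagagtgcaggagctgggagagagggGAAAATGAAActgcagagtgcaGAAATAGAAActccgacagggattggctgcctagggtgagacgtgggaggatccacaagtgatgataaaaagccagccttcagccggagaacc
ISG15: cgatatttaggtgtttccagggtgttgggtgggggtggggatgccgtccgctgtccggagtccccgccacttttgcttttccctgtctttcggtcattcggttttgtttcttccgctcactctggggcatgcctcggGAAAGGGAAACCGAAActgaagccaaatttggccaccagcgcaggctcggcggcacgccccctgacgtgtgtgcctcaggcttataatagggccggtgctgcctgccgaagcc
IFIT3: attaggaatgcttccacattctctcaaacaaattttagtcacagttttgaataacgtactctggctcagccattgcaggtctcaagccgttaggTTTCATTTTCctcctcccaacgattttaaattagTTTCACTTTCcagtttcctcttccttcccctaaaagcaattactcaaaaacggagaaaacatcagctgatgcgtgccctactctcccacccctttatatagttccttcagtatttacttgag
TAPBP and ISG15 each held 2 overlapping copies, IFI6 held 3 and IFIT3 held 2 on the opposite strand. In TAPBP the first copy began 20 bases before the start. In windows of 300 bases (250 before and 50 after a start, either strand), 20 of the 28 members in the RefSeq table held the core at 1 start or more (71.4%), against 4.38% of all 27305 genes with such a window. By role the core was found in 2 of 3 sensors, 0 of 2 transcription factor genes, 5 of 6 RNA-directed effectors, 8 of 10 other effectors, 2 of 3 genes of the ISG15 system and 3 of 4 antigen processing genes. A match describes the letters of the window and does not show binding.

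Of the 34 interferon-stimulated genes, TAPBP alone passed the threshold of 0.05 in any of 17 comparisons, in late G1 each time, and no member passed a moderated F test across the 7 groups (0.418% of all genes did) or among the 5 arrests (0.255%). Unadjusted p-values below 0.05 were found for 3 members across the 7 groups (8.82%, against 9.45% of all genes) and for 6 among the arrests (17.6%, against 6.89%). The 6 among the arrests were IFIT3, IFIT5, IFI6, IFI44, HERC5 and TAPBP. The median difference of the members lay between -0.35 (early G1 against CDT) and 0.22 (early S against the other arrests), beside -0.15 to 0.17 for the median of all genes. In 8 of the 17 comparisons the sign of the members' median turned when some 1 array was left out, and that of early G1 against CDT was -0.22 without early G1 replicate 2. The group with the highest mean differed from member to member: it was CDT + DHT for 6 members, CDT for 6, late G1, early S and G2/M for 5 each, late S for 4 and early G1 for 3. Late G1 was the lowest group for 10 members and late S for 8. Over the 20 arrays the members' levels had a mean pairwise correlation of 0.02, beside 0.05 for all genes, a description over arrays that share groups and processing.

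**Figure D1:**
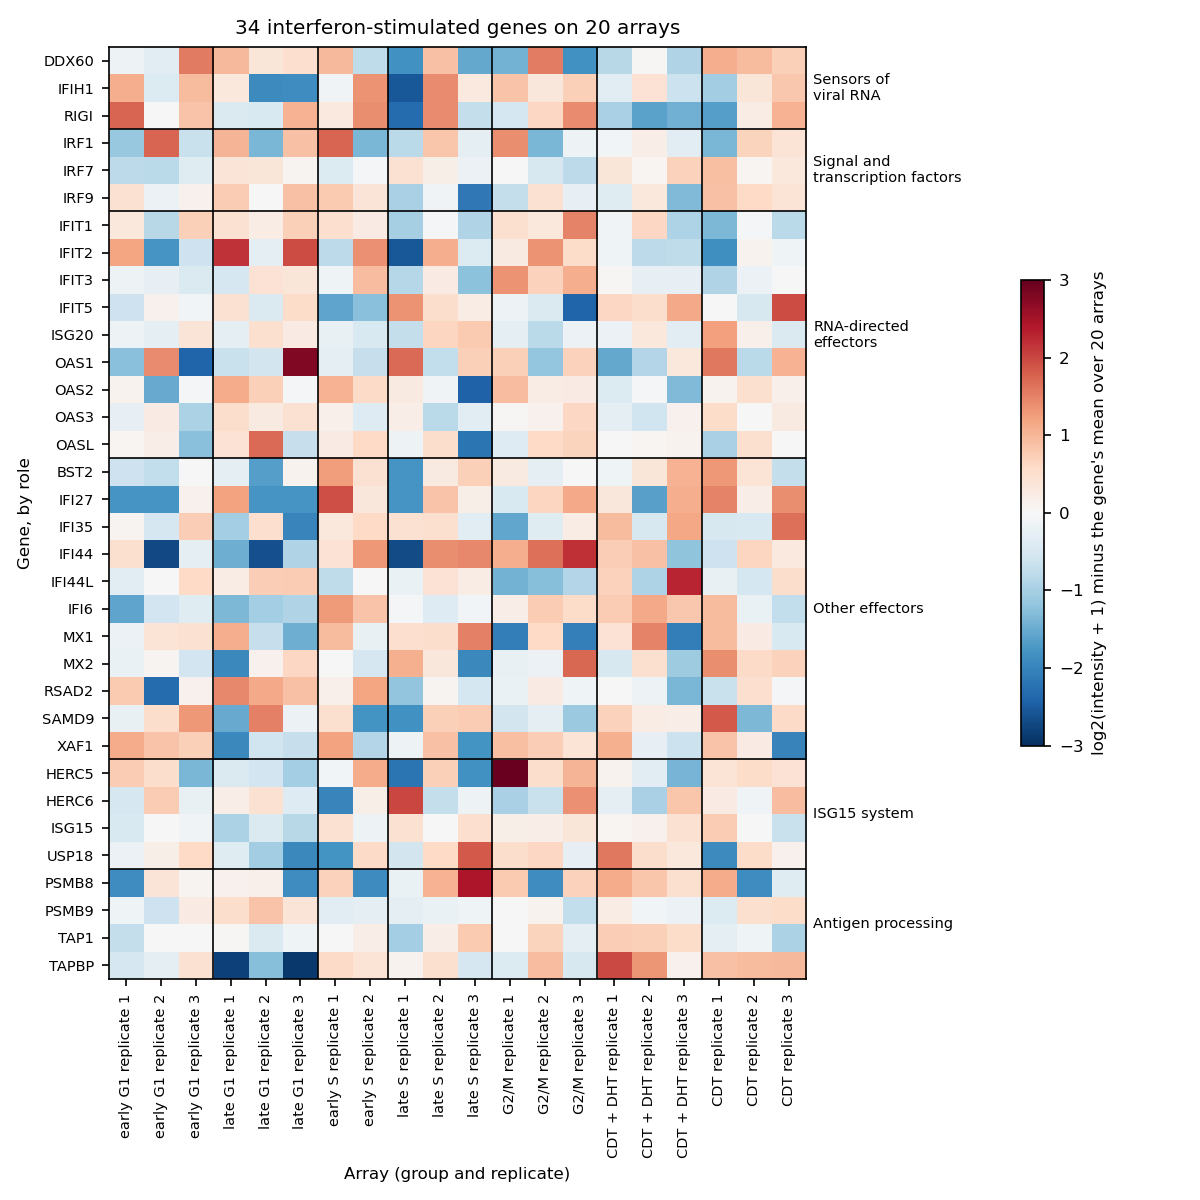
Level of each of the 34 measured members (rows, by role) on each array (columns, by group), as the difference of log2(intensity + 1) from the gene's mean over the 20 arrays, with red above and blue below that mean. No group has 1 colour from top to bottom, and the TAPBP row is blue on all 3 late G1 arrays.

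**Figure D2:**
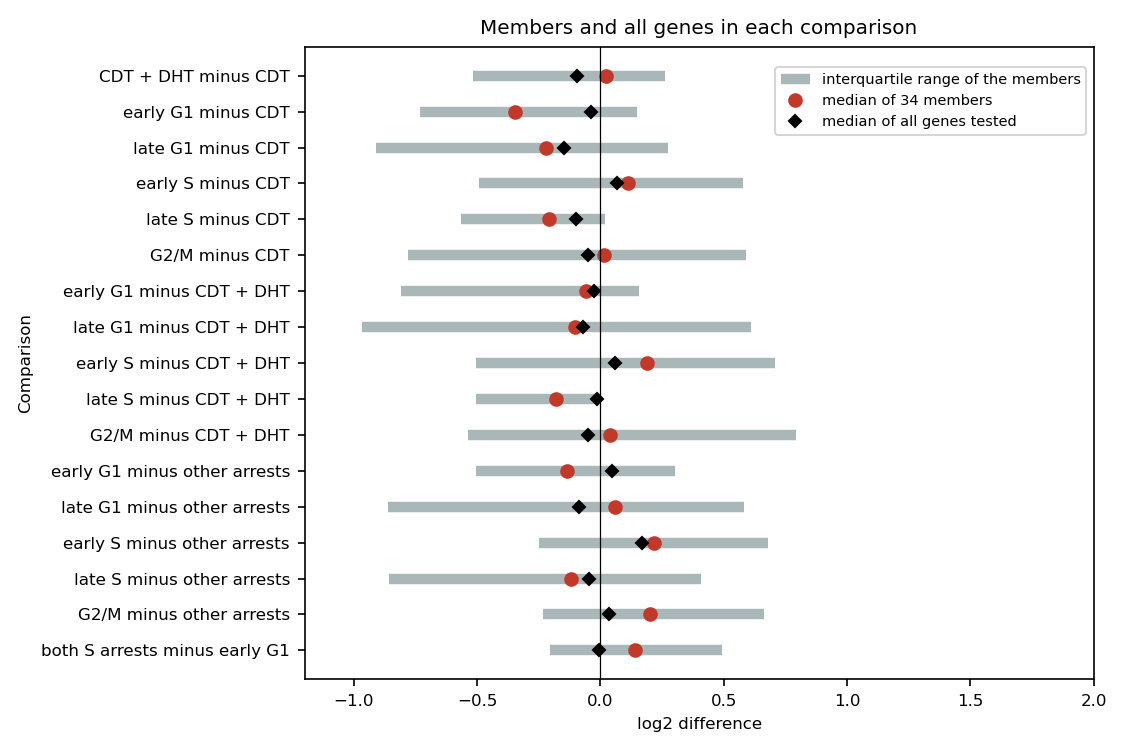
Median log2 difference of the 34 members (circles) and of all genes tested (diamonds) in each of 17 comparisons, with bars for the interquartile range of the members. Member medians lie between -0.35 and 0.22, and every bar but that of late S minus CDT + DHT crosses 0.

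Antigen processing was represented by TAPBP, TAP1, PSMB8 and PSMB9. TAPBP encodes tapasin, which holds empty class I molecules next to the peptide transporter. Its intensity was 1.37, 5.88 and 1.23 in the late G1 arrays, against 64.9, 40.4 and 17.3 in CDT + DHT and 29.7, 31.1 and 31.7 in CDT. Every late G1 array lay below all 17 other arrays, of which the lowest was early G1 replicate 1 at 10.7. On the log2 scale the level was 1.73 ± 0.92 in late G1 (SD, n = 3). In the other arrests it was 3.94 ± 0.51 (early G1), 4.55 ± 0.11 (early S, n = 2), 4.09 ± 0.49 (late S) and 4.06 ± 0.79 (G2/M), and the arrays of these 4 arrests overlapped. CDT + DHT lay at 5.20 ± 0.94 and CDT at 4.99 ± 0.05.

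TAPBP fell in late G1 by 3.26 ± 0.58 against CDT (adjusted p = 0.0242), where 1 of 34 members fell (2.94%) and 0.0977% of all genes did (0.103% changed in either direction). It fell by 3.47 ± 0.58 against CDT + DHT (adjusted p = 0.00997), where 0.489% of all genes fell (0.516% changed). Against the mean of the other 4 arrests it fell by 2.43 ± 0.47 (adjusted p = 0.0159), where 0.69% of all genes fell (0.706% changed). There 1.28% of all genes had every late G1 array below every array of the other arrests. In cultures such as these, fewer cells with the transcript and less of it per cell cannot be told apart. The late G1 intensities are low, so the size depends on the number added before the logarithm. With 16 in place of 1, the differences were -1.32 against CDT, -1.51 against CDT + DHT (adjusted p = 0.0363 and 0.00675) and -0.83 against the other arrests (0.0931, not past the threshold). The call also depended on single arrays. Against CDT it was lost without late G1 replicate 1 or 3 or any one CDT array (adjusted p = 0.0759 to 0.140). Against CDT + DHT it was lost without late G1 replicate 3 or CDT + DHT replicate 1 or 2 (0.0523 to 0.0795), and against the other arrests without late G1 replicate 1 or 3 (0.111 and 0.138). The size stayed between -3.79 and -2.98 against CDT whichever array was left out. When the fit held just the pair of groups compared, the adjusted p was 0.365 against CDT and 0.112 against CDT + DHT, at the same size. In early G1, late S and G2/M TAPBP had differences from CDT + DHT of -1.26 ± 0.58, -1.12 ± 0.58 and -1.14 ± 0.58, none of which passed (adjusted p = 0.604, 0.515 and 0.365).

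The array carries 3 clusters annotated to TAPBP. The one used here and another gave almost the same values (r = 1.00 over 20 arrays), and that second cluster differed by -3.25 ± 0.57 between late G1 and CDT. The third was dimmer, with group means of 1.54 to 2.39, and differed by -0.31 ± 0.93 (adjusted p = 0.953). It does not show the fall, and with the mean of the 3 clusters the late G1 difference from CDT was -2.27 (adjusted p = 0.203). The 3 clusters of PSMB8, PSMB9 and TAP1 held 1 set of values per gene.

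None of the other antigen processing genes passed in late G1. Against CDT + DHT, 1 of the 4 antigen processing genes lay above 0 there, with a median of -1.09. PSMB9, an interferon-inducible catalytic subunit of the proteasome, lay at 5.54, 5.85 and 5.39 in late G1, above every array of the other 4 arrests (4.25 to 5.24) but among those of CDT (4.59 to 5.55). Its difference from the other arrests was 0.82 ± 0.35 (adjusted p = 0.408), and 0.619% of all genes lay wholly above them in late G1. TAP1, a subunit of the peptide transporter, lay at 4.43, 3.96 and 4.26 in late G1, against 5.13, 5.11 and 4.93 in CDT + DHT and 4.12, 4.26 and 3.44 in CDT. Late G1 lay wholly below CDT + DHT (difference -0.84 ± 0.50, adjusted p = 0.471) and overlapped CDT (0.28 ± 0.50, or 0.03 without CDT replicate 3). Of all genes 14% lay wholly below CDT + DHT in late G1. PSMB8, another inducible proteasome subunit, had 2.02, 2.04 and 0.01 in late G1, also wholly below CDT + DHT. That difference was -1.33 ± 0.95 (adjusted p = 0.568), or -0.66 without late G1 replicate 3. PSMB8 was highest in late S, at 1.68, 2.93 and 4.32, against 2.99, 2.71 and 2.37 in CDT + DHT and 3.00, 0.01 and 1.53 in CDT. These groups overlapped, and late S differed from the other arrests by 1.52 ± 0.76 (adjusted p = 0.7225), or 0.85 without late S replicate 3.

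**Figure D3:**
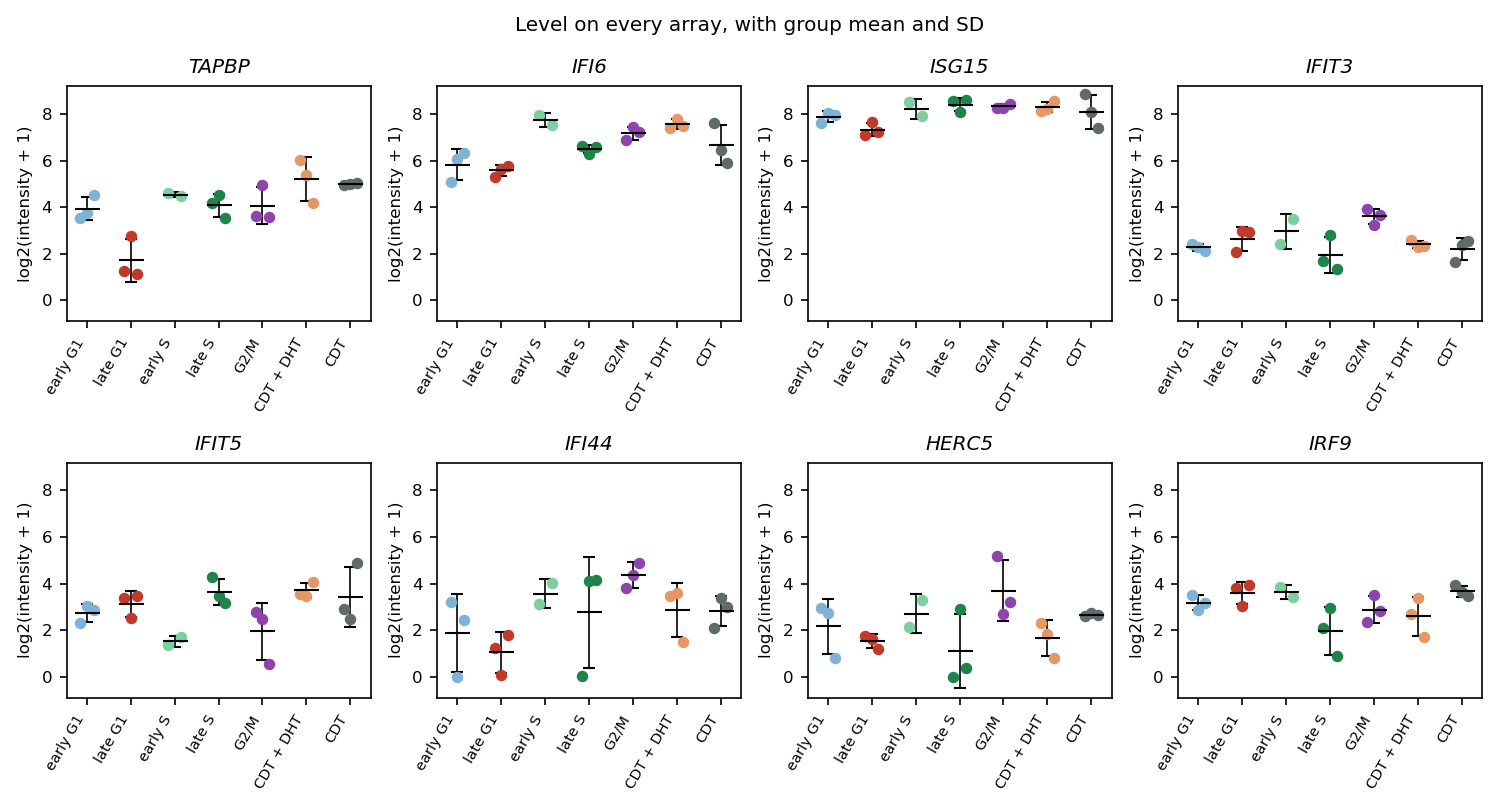
Level of 8 members on every array (points), with the group mean (dash) and SD (bars), in log2(intensity + 1), for the 5 arrests, CDT + DHT and CDT (n = 3, early S n = 2). TAPBP is lowest in late G1 (1.15 to 2.78), IFI6 is lowest on average in both G1 arrests (5.08 to 6.31), and ISG15 stays between 7.11 and 8.84.

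In late G1 the remaining members lay on both sides of 0, and none but TAPBP passed. Against CDT 3 of 34 members had an unadjusted p below 0.05 (9.06% of all genes), and against CDT + DHT 5 did (14% of all genes). Against the other arrests 8 of 34 members had an unadjusted p below 0.05 (23.5%, against 10.5% of all genes), with RSAD2 and PSMB9 above 0 and ISG15, IFI6, IFI44, IFIH1, XAF1 and TAPBP below it. Of the 9 RNA-directed effectors, 8 lay above 0 in that comparison, with a median of 0.54, and of the 11 other effectors 3 did, with a median of -0.65. Of all genes 44.7% lay above 0, with a median of -0.09. Against CDT + DHT, 8 of the 9 RNA-directed effectors and 1 of the 11 other effectors lay above 0 (46.9% of all genes). With the arrays centred on their medians, or quantile normalized, 9 RNA-directed and 3 other effectors lay above 0 against the other arrests. IFIT2, an RNA-binding protein gene, had the highest difference among members (1.28 ± 0.74, adjusted p = 0.590; 0.83 without late G1 replicate 1 and 2.06 without replicate 2), and RSAD2, which encodes the antiviral enzyme viperin, had 1.25 ± 0.53 (adjusted p = 0.398). RSAD2 lay at 3.80, 3.50 and 3.24 in late G1, against 2.36, 2.20 and 0.98 in CDT + DHT and 1.70, 2.86 and 2.29 in CDT, groups that did not overlap. Against CDT + DHT the groups did not overlap for 12 members (35.3%, against 24.8% of all genes), 6 higher (10.8% of all genes) and 6 lower (14%) in late G1. Against CDT this held for 6 members (17.6%, against 15.6%).

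**Figure D4:**
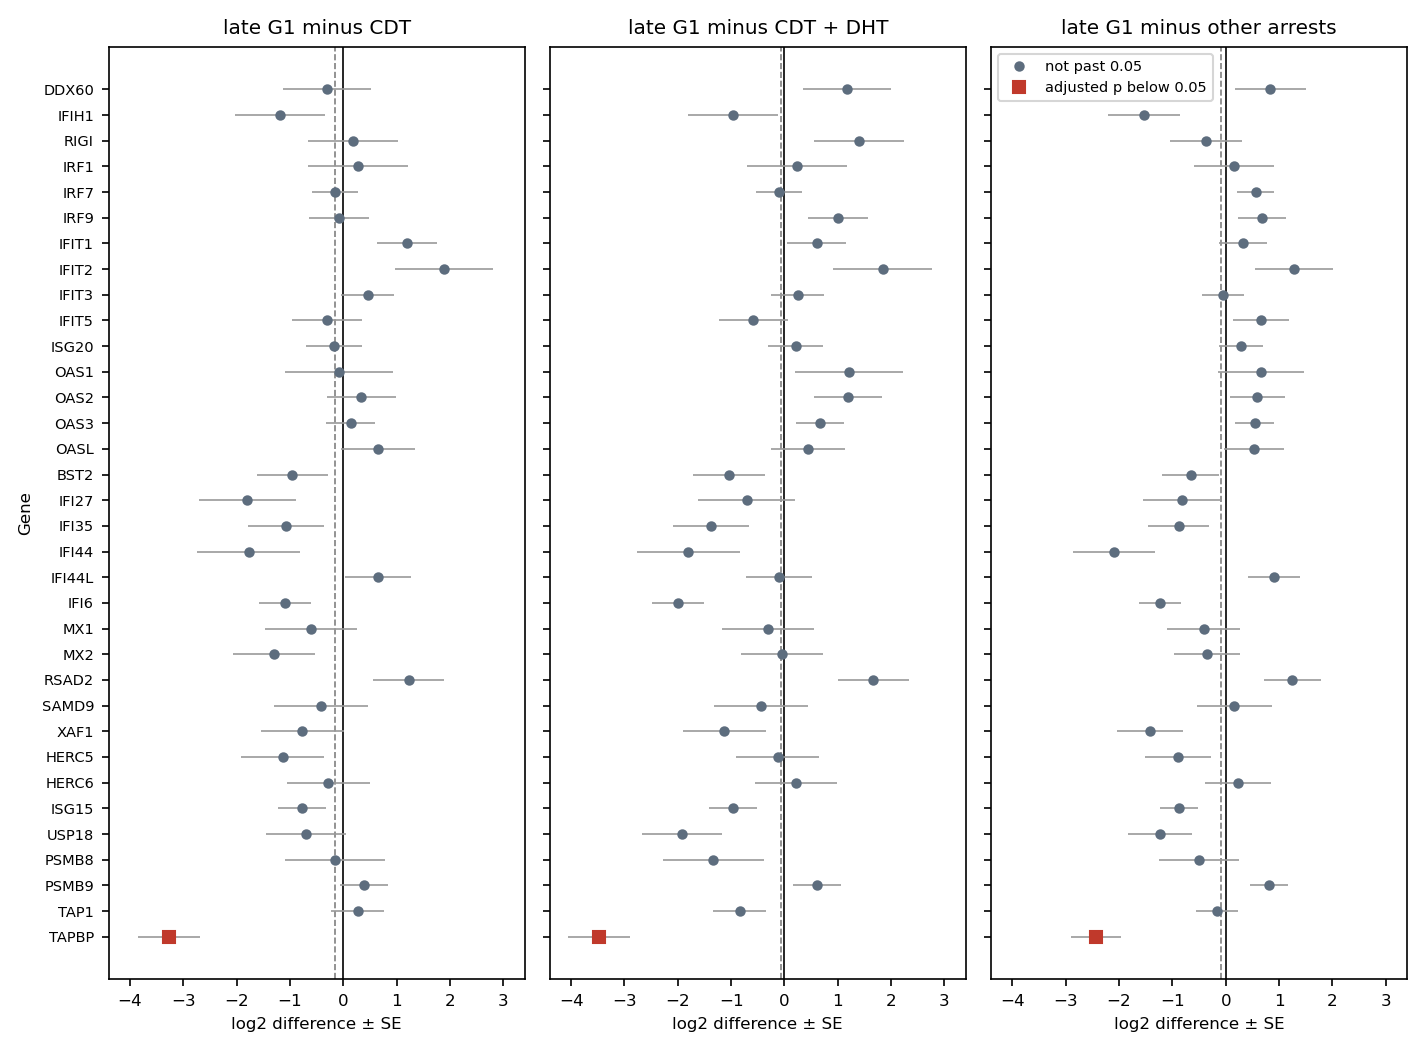
Log2 difference ± SE of each measured member in late G1 against CDT, against CDT + DHT and against the mean of the other 4 arrests, with squares for adjusted p below 0.05 and a dashed line at the median of all genes. TAPBP is the single square in each panel (-3.26, -3.47 and -2.43).

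IFI6, which encodes a small interferon-induced membrane protein, had the second smallest p-value among members in the F test across the 7 groups (adjusted p = 0.183). Its intensity was 32.9, 66.9 and 78.5 in early G1, 38.8, 49.2 and 53.7 in late G1, 245 and 183 in early S, 97.0, 77.2 and 94.9 in late S, with 116, 170 and 147 in G2/M. It was 170, 222 and 179 in CDT + DHT and 194, 87.4 and 59.5 in CDT. The arrays of both G1 arrests lay below all arrays of early S, G2/M and CDT + DHT. CDT ranged widely: late G1 lay wholly below it (10.1% of all genes did), and early G1 overlapped it. The largest difference was in late G1 against CDT + DHT, -1.99 ± 0.49 (adjusted p = 0.0713), and the early G1 difference from CDT + DHT was -1.74 ± 0.49 (adjusted p = 0.456). Wholly below CDT + DHT lay 14% of all genes in late G1 and 8.71% in early G1. The late G1 difference did not pass, but 6 of 31 alternatives brought it past the threshold. The mean of both S arrests exceeded that of early G1 by 1.29 ± 0.44 (adjusted p = 1.00). These arrays overlapped, with late S replicate 2 at 77.2 and early G1 replicate 3 at 78.5. Early S exceeded the mean of the other arrests by 1.46 ± 0.46 (adjusted p = 0.950).

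ISG15, the ubiquitin-like modifier that gives the system its name and was singled out after its values were seen, ranged from 7.11 to 8.84 over the 20 arrays. It lay at 7.11, 7.65 and 7.23 in late G1, against 8.13, 8.20 and 8.54 in CDT + DHT and 8.84, 8.07 and 7.39 in CDT. Late G1 did not overlap CDT + DHT but overlapped CDT, and the differences were -0.96 ± 0.45 (adjusted p = 0.347) and -0.77 ± 0.45 (adjusted p = 0.657), the second being -0.40 without CDT replicate 1. HERC5, the main ligase that attaches ISG15 in human cells, had 5.17, 2.72 and 3.21 in G2/M, against 2.31, 1.86 and 0.81 in CDT + DHT and 2.60, 2.76 and 2.64 in CDT. G2/M replicate 1 was the highest array, and G2/M exceeded the other arrests by 1.82 ± 0.62 (adjusted p = 0.725), or 1.08 without that array. USP18, the protease that removes ISG15 and dampens the interferon receptor, had 1.57, 0.90 and 0.01 in late G1, against 3.51, 2.47 and 2.25 in CDT + DHT and 0.03, 2.48 and 2.05 in CDT. Its late G1 difference from CDT + DHT was -1.92 ± 0.75 (adjusted p = 0.252).

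Among RNA-directed effectors the IFIT genes are clustered neighbours that encode proteins which bind foreign RNA. None of the 4 passed. For IFIT1, IFIT2 and IFIT3 every G2/M array lay above every CDT array, by 1.48 ± 0.56 for IFIT1 (adjusted p = 0.561) and 1.34 ± 0.92 for IFIT2 (0.819, with a difference of 0.73 without CDT replicate 1). G2/M lay wholly above CDT for 4 members, with IFI44 the other (11.8%, against 6.64% of all genes). IFIT1 also lay wholly above CDT in late G1 (5.52% of all genes did) and in early S (11%). IFIT3 had 3.92, 3.26 and 3.65 in G2/M, against 2.59, 2.31 and 2.32 in CDT + DHT and 1.67, 2.39 and 2.54 in CDT, with no overlap. The G2/M difference was 1.20 ± 0.49 from CDT + DHT (adjusted p = 0.258), 1.41 ± 0.49 from CDT (0.524) and 1.14 ± 0.40 from the other arrests (0.748). Of all genes 15.1% lay wholly above CDT + DHT in G2/M. IFIT5 had 1.36 and 1.70 in early S and 2.80, 2.50 and 0.55 in G2/M, against 3.57, 3.48 and 4.08 in CDT + DHT and 2.94, 2.47 and 4.90 in CDT. Early S and G2/M each lay below every CDT + DHT array, by 2.18 ± 0.73 for early S (adjusted p = 0.497) and 1.76 ± 0.65 for G2/M (adjusted p = 0.216). Without G2/M replicate 3 the G2/M difference was -1.06. Of all genes 13.2% lay wholly below CDT + DHT in early S and 11.8% in G2/M. The mean pairwise correlation among IFIT1 to IFIT3 and the 4 OAS genes was 0.22 over the arrays and 0.00 for deviations from group means.

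Among the other effectors IFI44 had the widest range of group means of any member apart from TAPBP. It lay at 3.81, 4.38 and 4.91 in G2/M and at 1.26, 0.10 and 1.81 in late G1, against 3.47, 3.59 and 1.52 in CDT + DHT and 2.10, 3.38 and 3.01 in CDT. Single arrays near 0 also occurred in early G1 (replicate 2, 0.01) and late S (replicate 1, 0.03), both among the arrays that stood apart. Late G1 differed from the other arrests by -2.10 ± 0.77 (adjusted p = 0.302), and G2/M by 2.04 ± 0.77 (adjusted p = 0.818). Without the 4 arrays that stood apart, IFI44 fell in late G1 against the other arrests by 2.67 (adjusted p = 0.00388). Those 4 were chosen from these data and held both near-0 arrays, so that leaving them out itself enlarges the fall. Late S replicate 2, on the other side of the axis with IFI44 at 4.11, was kept. In that setting 406 of 18417 genes passed in this comparison, against 130 as reported. IFI44L, a neighbouring related gene, was on average lowest in G2/M, where IFI44 was highest. It lay at 0.33, 0.47 and 0.88 in G2/M, against 2.45, 0.83 and 4.03 in CDT + DHT, groups that overlapped. The difference from CDT + DHT, -1.88 ± 0.62 (adjusted p = 0.169), was -1.08 without CDT + DHT replicate 3. G2/M lay wholly below CDT, at 1.52, 1.23 and 2.29 (7.55% of all genes did). It also lay below every array of the other 4 arrests (0.239% of all genes did). IFI44L did not pass in any of these comparisons.

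Of the sensors, RIGI, which recognises RNA with a free triphosphate end, was lowest in CDT + DHT. It lay at 4.04, 2.31 and 3.17 in early G1, against 1.33, 0.70 and 0.86 in CDT + DHT and 0.66, 2.53 and 3.34 in CDT, so that early G1 separated from CDT + DHT but not from CDT. The early G1 difference from CDT + DHT was 2.21 ± 0.84 (adjusted p = 0.563). This separation was not particular to early G1. RIGI also exceeded every CDT + DHT array throughout G2/M (1.76 to 3.73), early S (2.59 and 3.69) and late G1 (1.85 to 3.36). Only the late S arrest, with 0.00, 3.72 and 1.59, overlapped CDT + DHT. Of all genes 7.16% lay wholly above CDT + DHT in early G1, 15.1% in G2/M, 15.3% in early S and 10.8% in late G1. RIGI passed in none of these comparisons. IFIH1 and DDX60 ranged over 0.29 to 4.24 and 0.01 to 3.38 across arrays and passed no test.

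Among the transcription factor genes, IRF9, the DNA-binding partner of the STAT proteins, was lowest in late S. It lay at 2.08, 2.95 and 0.90 in late S, against 2.68, 3.38 and 1.73 in CDT + DHT and 3.93, 3.65 and 3.46 in CDT. Late S separated from CDT (5.18% of all genes lay wholly lower), by -1.70 ± 0.56 (adjusted p = 0.554), and not from CDT + DHT. IRF7, which amplifies interferon production, had 2.96, 2.94 and 3.38 in early G1, against 4.10, 3.81 and 4.44 in CDT + DHT and 4.64, 3.80 and 4.05 in CDT. The early G1 arrays lay below all 6, by 1.02 ± 0.43 from CDT + DHT (adjusted p = 0.568) and 1.07 ± 0.43 from CDT (0.953). This was not particular to early G1. IRF7 in early S (3.33 and 3.70) and G2/M (3.73, 3.25 and 2.97) also lay below all 6. Of all genes 8.71% in early G1, 13.2% in early S and 11.8% in G2/M lay wholly below CDT + DHT. Wholly below CDT lay 7.07%, 11% and 7.55%. IRF1 had group means within 0.29 of each other.

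With DHT alone, CDT + DHT against CDT, no member and no gene passed with limma, and 1 member had an unadjusted p below 0.05 (2.94%, against 6.86% of all genes). That member was TAP1, with 5.13, 5.11 and 4.93 in CDT + DHT, against 4.12, 4.26 and 3.44 in CDT (difference 1.12 ± 0.50, adjusted p = 0.70). The groups did not overlap for 6 members (17.6%, against 13.8% of all genes), with TAP1 higher (7.81% of all genes) and MX2, OAS2, DDX60, IRF9 and HERC5 lower (5.95%) in CDT + DHT. In both S arrests against early G1, the comparison of cells stopped in DNA synthesis with cells stopped before it, no member passed (0.0271% of all genes did), 1 had an unadjusted p below 0.05 (IFI6, against 2.3% of all genes) and the median was 0.14, beside -0.01 for all genes. Of the 34 members 20 lay above 0 there (49.6% of all genes did). Without late S replicate 2 the median was -0.04.

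No member passed in the arrests other than late G1. The shares of all genes that passed against CDT were 0.00543% (early G1), 0.0326% (early S), 0.0977% (late S) and 0.109% (G2/M). Against CDT + DHT they were 0% (early G1), 0.00543% (early S), 0.0706% (late S) and 0.44% (G2/M). Set against the other arrests, they were 0% for early G1 and early S and 0.0271% in each of late S and G2/M. Unadjusted p-values below 0.05 against CDT were found for 2 members in early G1 (5.11% of all genes), 1 in early S (5.57%), 2 in late S (5.94%), plus 3 in G2/M (7.05%). Against CDT + DHT they were found for 4 in early G1 (8.07%), 2 in early S (7.62%), 1 in late S (10.2%), plus 5 in G2/M (15.1%). Against the other arrests they were found for 1 in early G1 (2.47%), 2 in early S (3.88%), 6 in late S (6.92%), plus 4 in G2/M (5%). The 6 of late S were IFIT1, IFIT3, OAS2, IRF9 and HERC5, all lower, and IFIT5, higher. In late S against CDT + DHT, 8 of 34 members lay above 0, where 49.4% of all genes did, with a median of -0.18. That median was -0.58 without late S replicate 2 and -0.08 without late S replicate 3.

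The rest of the pathway gave 0 calls in any comparison: 16 of 21 interferon genes, 9 of 10 receptor and kinase genes, 6 negative regulators, 17 of 18 genes of nucleic acid sensing and 11 of 17 genes of class I presentation were measured. JAK1, the receptor kinase, had a median of 1.99 and a range of 0.00 to 3.29 over the 20 arrays. IFNB1, the gene of interferon beta, ranged from 0.04 to 3.62 with a median of 1.76. The receptor genes IFNAR1 and IFNAR2 had medians of 3.26 and 3.27. CGAS, the sensor of cytosolic DNA, had a median of 2.58, its adaptor STING1 4.82 and the factor IRF3 4.25. STING1 was highest in late S (6.14 ± 1.09) and CDT + DHT (5.94 ± 0.42) and did not pass in any comparison (smallest adjusted p = 0.364). In late G1 against CDT, class I presentation genes outside the member list had a median difference of -0.22, beside -0.15 for all genes, with 3 of 11 above 0.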

How the data were processed

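Per the labels' protocols, Trizol RNA from LNCaP cells was amplified (NuGEN Ovation Pico WTA V2) and biotin-labelled. The deposited values are linear intensities per transcript cluster for which the submitters' processing notes name Affymetrix Expression Console 1.1. How probes were summarised and whether arrays were normalized to each other is not given in the sources used here. That the scale is linear was read from the values. Members ranged from 0.0019 (IFI27, late G1 replicate 3) to 457 (ISG15, CDT replicate 1). No value lay at or below 0, which by itself does not tell a linear from a log2 scale.

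Of 33297 features, 19460 had 1 gene symbol in the platform's annotation and 1754 had several, and 12083 had none there. Current names came from RefSeq by Entrez ID (19429 matched). The brightest cluster per gene gave 18417 genes. Values were used as log2(value + 1), without further normalization. Two-sided tests came from limma (version 3.58.1, R 4.3.3) with 1 coefficient per group and moderated variances over 20 arrays. P-values were adjusted by Benjamini-Hochberg over every gene tested and called below 0.05. The fit was tested on simulated data.

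The members and lists were chosen with earlier results of these data known. Members named by rule were those that passed any test and, in each of 6 roles, the 2 with the smallest F-test p across groups (1 among sensors). Most of these are given by array in the arrests described, CDT + DHT and CDT, and not in every group. ISG15, RSAD2, PSMB9, TAP1 and IFI44L are also given by array, with differences of IFIT1 and IFIT2, and were chosen after their values were seen. Alternatives are listed in the closing section.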

Additional observations from a re-analysis of the deposited data

Results flagged for a closer look

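TAPBP stood apart in late G1. Its level there differed from the mean of the other 4 arrests by -2.43 ± 0.47 on the log2 scale (limma, adjusted p = 0.0159), a contrast that passed. The F test among the 5 arrests did not pass for TAPBP (adjusted p = 0.179), and the contrast did not pass without late G1 replicate 1 or 3, with the mean of its clusters or with a pseudocount of 16. All 3 late G1 arrays lay below all 11 arrays of the other arrests, which held for 1.28% of all genes. Values of its second cluster moved likewise and those of the third did not. Groups of 2 or 3 arrays were too small to check single arrays for outlying values.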

How the results depend on the processing

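Alternatives were log2(value + 16), quantile normalization, centring of arrays, leaving out dim genes (16 members stayed), the mean of a gene's clusters, testing every feature, eBayes with trend and robust, arrayWeights, a replicate block, a fit to the compared groups alone, leaving out the 4 arrays that stood apart and leaving out each array in turn. Leaving out arrays for further member differences and for the members' medians was chosen after seeing the data. None of 18 member differences followed through the 31 alternatives changed sign where it could be computed. These 18 were picked for small p-values among the members named by rule. A change of sign was therefore unlikely from the start, and its absence does not show that they are firm. TAPBP in late G1 passed in 23 of 31 against CDT, 26 against CDT + DHT and 27 against the other arrests. These tallies overstate how firm the calls were, since 20 of the 31 left out 1 array. An array outside the compared groups leaves the difference itself unchanged. Against CDT the call was lost without late G1 replicate 1 or 3 or any one CDT array. The smallest sizes of the TAPBP difference, -1.32, -1.51 and -0.83, came with a pseudocount of 16, where the last did not pass (adjusted p = 0.0931).

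Across the 7 groups, where 0 members passed, 1 did with a pseudocount of 16 (IFI6) and 1 with quantile normalization, centring or without dim genes (TAPBP), 2 with trend and robust and 6 with arrayWeights (5.83% of all genes, against 0.418% as reported). Among the arrests, where 0 passed, 1 did with a pseudocount of 16, 1 with trend and robust, 1 without the 4 arrays and 4 with arrayWeights (1.94%, against 0.255%). Against CDT (0.0695% of tests over all genes) the count of 1 became 0 with the mean of clusters (0.0706%), the compared groups alone (0.0119%) and without the 4 arrays (0.025%), and 3 with arrayWeights (0.382%). Against CDT + DHT (0.206%) the count of 1 became 2 with a pseudocount of 16, centring, the dim filter or trend and robust (0.437% to 0.944%), 0 with the mean of clusters (0.167%) or the compared groups alone (0.439%), and 11 with arrayWeights (4.94%). With the compared groups alone, 0 of all genes passed in late G1 against CDT or CDT + DHT. Against the other arrests (0.152%) the count of 1 became 0 with the mean of clusters (0.146%), 2 without the 4 arrays (0.451%) and 10 with arrayWeights (1.38%). Leaving out 1 array gave 0 to 1 across groups, 0 among arrests, 0 to 1 against CDT, 0 to 2 against CDT + DHT and 0 to 1 against the other arrests. An early S group of 1 array was then assumed to vary like the other groups. For CDT + DHT against CDT and both S arrests against early G1, the count was 0 in all 31. The cause of these changes was not tested, apart from the smaller number of arrays or genes that an alternative itself sets.

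With the replicate block TAPBP stayed called in 3 comparisons and the counts were unchanged (1 against CDT, 1 against CDT + DHT and 1 against the other arrests). Arrays with the same replicate number had deviations with a median correlation of -0.03 over 57 pairs, as did the 114 pairs with different numbers. For 6 of 20 arrays the closest array of another group had the same number. No shared deviation was seen. The labels do not tell whether equal numbers mark arrays handled together, and these correlations cannot decide it. In late G1 against CDT, centring gave a median over all genes of -0.01 (-0.15 without it) and a members' median of -0.08 (-0.22 without it). Levels near 0 vary widely on the log2 scale, which limits what can be seen for the dimmer members.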
